A study of Arabidopsis thaliana with 6 samples.

Results

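Transcripts of 10 flavonoid genes of Arabidopsis thaliana were followed from the first step of the pathway into its flavonol and anthocyanin branches. The genes were chosen by identifier, with earlier results of these data known. All 10 were found among the 32833 genes of the deposited table. They were the shared enzyme genes CHS, CHI and F3'H, the flavonol synthase gene FLS1, the anthocyanin genes DFR, LDOX and TT19, and the regulator genes MYB12, MYB111 and MYB75 (also called PAP1). RNA was sequenced from whole seedlings aged 8 days, with 3 libraries of the wild type (WT) and 3 of the mutant phod2. The library descriptions of phod2 carry the name LIP1, and the series title ties the study to the plastidial lipoyl synthase LIP1p and to phosphate homeostasis. The labels name neither the ecotype, nor the kind of change in phod2, nor which phosphate supply, high or low, a library came from. All fold changes are phod2 over WT.

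Flavonoids are made in plants from phenylalanine by way of coumaroyl-CoA. Chalcone synthase, chalcone isomerase and the flavanone and flavonoid hydroxylases form dihydroflavonols, which flavonol synthase turns into flavonols and dihydroflavonol reductase (DFR) commits to anthocyanins. Both enzymes thus draw on the same substrates. In Arabidopsis the early genes and FLS1 are activated by the MYB factors MYB11, MYB12 and MYB111, and the late anthocyanin genes by complexes of a MYB factor such as MYB75, a bHLH factor such as TT8, GL3 or EGL3, and the WD40 protein TTG1. Anthocyanins are known to accumulate in shoots of phosphate-starved plants.

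The libraries held 17319308 to 22417595 counts, and the 20169 genes that passed a filter on low counts entered the edgeR quasi-likelihood test, with p-values adjusted by Benjamini-Hochberg over all of them. A gene passed at an adjusted p of 0.05 or less, and the study's own rule also asks for a 2-fold change. Of all tested genes 45.5% passed, 24.6% lower and 20.9% higher in phod2, and their median log2 fold change was 0.01. LIP1P (AT5G08415) had 769, 558 and 773 counts in WT and 387, 425 and 417 in phod2, a log2 fold change of -0.74 ± 0.06 (SE). Most markers of root cells were lower in phod2. The summed level of 8 root hair markers was 41.6 to 48.4 FPKM (counts scaled by exonic length and library total) in WT and 14.2 to 15.2 in phod2, and that of 8 endodermis markers 85.9 to 95.3 against 37.0 to 39.7 FPKM. The sum of 5 leaf markers was 17837 to 18213 FPKM in WT and 18358 to 18660 in phod2, and none of these 21 markers was at 0 in any library. In whole seedlings, fewer cells of a type and less RNA per cell cannot be told apart.

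Between phod2 and WT the enzyme genes CHS, CHI, F3'H and FLS1 fell and the anthocyanin genes DFR, LDOX and TT19 rose. Of the 10 members 9 were tested, and 5 fell (CHS, CHI, F3'H, FLS1 and MYB12), 3 rose (DFR, LDOX and TT19) and MYB111 did not pass. MYB75 had too few counts for the test. Beside the 24.6% of all tested genes that fell and the 20.9% that rose, 5 and 3 of 9 members did. At 2-fold or more 4 of the 9 members passed, against 7.51% of all tested genes. CHS, FLS1 and MYB12 fell, where 5.72% of all tested genes did, and TT19 rose, where 1.79% did. The 3 FPKM values of phod2 lay apart from the 3 of WT in 8 of the 9 tested members and in 54.1% of all tested genes. Because the members were chosen with earlier results of these data known, these shares are a description and not a test. The falls lay beside those of the root markers, in which all 8 of the root hair list and 6 of 8 of the endodermis list fell (median log2 fold changes -1.76 and -1.98), and their part in the falls was not tested. The other endodermis markers, ESB1 (log2 fold change 0.65 ± 0.36, adjusted p = 0.139) and SCR (0.10 ± 0.05, adjusted p = 0.125), did not pass. ESB1 had only 7 to 23 counts in a library. It lies 84.6% within a gene counted on the opposite strand. Whether counting used strand was not given, so its values may say little about its transcript. Of the 5 leaf markers 2 rose and 2 fell (median -0.01).

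**Figure D1:**
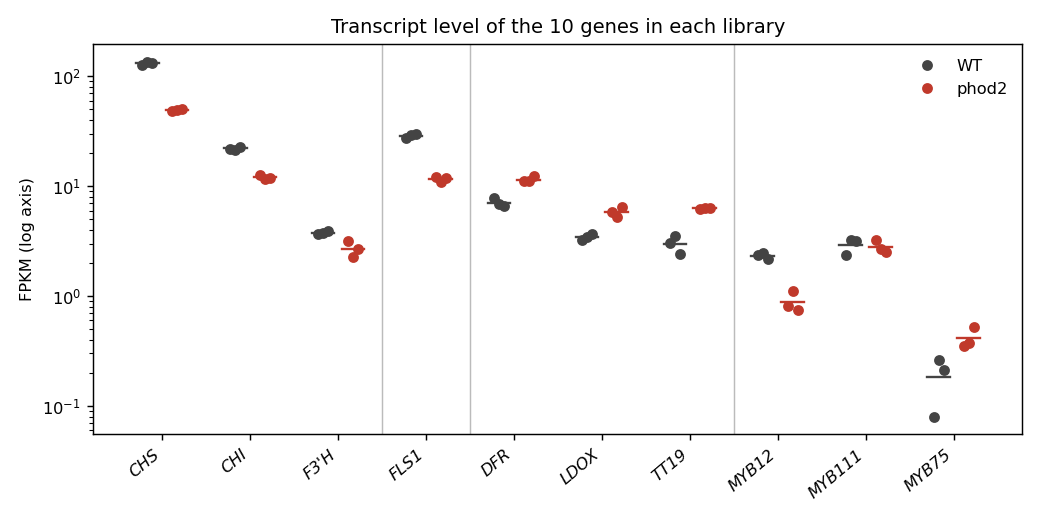
FPKM of the 10 genes on a log axis, with 1 point for each library, a short line at the mean of each genotype (n = 3) and grey lines between shared enzymes, flavonol synthase, anthocyanin genes and regulators. Points of CHS, CHI, F3'H, FLS1 and MYB12 lie lower in phod2, those of DFR, LDOX, TT19 and MYB75 lie higher, and those of MYB111 overlap.

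The promoters of the 3 members that were at least 2-fold lower and of the 3 that were higher are shown because these genes moved together in opposite directions. Each runs 5′ to 3′ on the gene's strand from 250 bases before to 50 bases after the start of the gene in the table, read from the TAIR10.1 genome of RefSeq. The windows were chr5:4488226-4488525 (plus strand) for CHS, chr5:2803583-2803882 (plus) for FLS1, chr2:19476076-19476375 (plus) for MYB12, chr5:17165983-17166282 (minus) for DFR, chr4:12006160-12006459 (minus) for LDOX and chr5:5658166-5658465 (plus) for TT19. Capitals mark the G-box CACGTG, bound by bHLH and bZIP factors, and the MYB recognition elements ACCTACC or ACCTAAC or ACCAACC or ACCAAAC, all searched on both strands.
CHS: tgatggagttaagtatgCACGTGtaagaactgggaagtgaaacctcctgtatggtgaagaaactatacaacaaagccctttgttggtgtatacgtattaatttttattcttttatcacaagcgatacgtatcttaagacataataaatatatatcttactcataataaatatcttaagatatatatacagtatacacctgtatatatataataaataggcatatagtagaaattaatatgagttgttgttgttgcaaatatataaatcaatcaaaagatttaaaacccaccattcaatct
FLS1: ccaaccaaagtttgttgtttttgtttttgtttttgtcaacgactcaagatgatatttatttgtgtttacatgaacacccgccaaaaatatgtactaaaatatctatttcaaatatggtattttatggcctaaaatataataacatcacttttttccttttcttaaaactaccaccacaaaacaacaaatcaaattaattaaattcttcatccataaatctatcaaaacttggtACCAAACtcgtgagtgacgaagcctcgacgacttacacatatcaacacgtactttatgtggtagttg
MYB12: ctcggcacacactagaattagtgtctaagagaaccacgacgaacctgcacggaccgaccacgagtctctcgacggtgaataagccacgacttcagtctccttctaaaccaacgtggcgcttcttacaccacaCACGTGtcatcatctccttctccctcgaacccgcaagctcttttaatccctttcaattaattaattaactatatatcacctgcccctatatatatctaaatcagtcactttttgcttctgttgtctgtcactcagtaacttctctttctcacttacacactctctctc
DFR: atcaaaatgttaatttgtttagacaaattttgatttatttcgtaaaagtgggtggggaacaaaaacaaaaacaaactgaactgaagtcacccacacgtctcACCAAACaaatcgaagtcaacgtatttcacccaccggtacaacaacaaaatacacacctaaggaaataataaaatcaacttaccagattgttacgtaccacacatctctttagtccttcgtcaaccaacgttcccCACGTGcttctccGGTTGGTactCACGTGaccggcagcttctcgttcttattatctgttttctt
LDOX: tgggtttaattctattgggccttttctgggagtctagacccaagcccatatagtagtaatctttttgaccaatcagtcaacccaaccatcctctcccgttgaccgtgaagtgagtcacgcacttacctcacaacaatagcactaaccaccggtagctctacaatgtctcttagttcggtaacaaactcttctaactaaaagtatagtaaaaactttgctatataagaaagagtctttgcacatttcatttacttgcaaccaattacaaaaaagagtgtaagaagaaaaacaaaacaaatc
TT19: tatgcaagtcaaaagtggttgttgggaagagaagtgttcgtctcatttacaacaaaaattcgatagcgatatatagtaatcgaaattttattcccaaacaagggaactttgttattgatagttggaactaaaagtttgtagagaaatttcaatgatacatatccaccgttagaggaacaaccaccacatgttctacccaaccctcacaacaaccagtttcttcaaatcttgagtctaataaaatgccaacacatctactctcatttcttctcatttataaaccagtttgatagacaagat

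DFR held both kinds of motif, with G-boxes at positions -14 to -9 and 10 to 15 counted from the start, and MYB elements at -149 to -143 and -1 to 6. CHS held a G-box at -233 to -228 and MYB12 one at -118 to -113, FLS1 held a MYB element at -17 to -11, and LDOX and TT19 held neither in this window. Among all 10 members 4 held a G-box, the fourth being CHI, and 3 held a MYB element, the third being MYB75, against 7.68% and 16.3% of the 27443 protein-coding promoters searched. No motif overlapped another. The sequence GNATATNC, which the phosphate starvation factor PHR1 binds, was in the windows of F3'H and MYB111 and in 6.25% of all promoters. The windows rest on the annotated start, which need not be the start used in these seedlings, and a match is a run of letters, not a shown binding site.

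CHS (AT5G13930, chromosome 5, positions 4488476 to 4490264, plus strand, 2 exons) encodes chalcone synthase, which opens the flavonoid pathway. Its level was 127.9, 135.7 and 131.7 FPKM in WT and 48.1, 49.6 and 49.9 FPKM in phod2. The lowest WT library lay well above the highest phod2 library. Its log2 fold change was -1.46 ± 0.03 (SE, adjusted p = 3.9e-43), or 2.75-fold lower in phod2, and it had the highest level of the 10 genes in both genotypes.

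CHI (AT3G55120, chromosome 3, positions 20430059 to 20431597, minus strand, 4 exons) encodes chalcone isomerase, the next enzyme. It was at 21.9, 21.4 and 22.8 FPKM in WT and 12.6, 11.7 and 11.98 FPKM in phod2, without overlap (log2 fold change -0.91 ± 0.08, adjusted p = 6.3e-16). F3'H (AT5G07990, chromosome 5, positions 2560328 to 2563137, plus strand, 4 exons) encodes the hydroxylase that turns kaempferol-type into quercetin-type and cyanidin-type precursors. It was at 3.65, 3.77 and 3.90 FPKM in WT and 3.14, 2.27 and 2.67 FPKM in phod2. Its groups did not overlap, and its log2 fold change of -0.53 ± 0.13 (adjusted p = 6.0e-04) was the smallest of the members that fell.

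FLS1 (AT5G08640, chromosome 5, positions 2803833 to 2805606, plus strand, 3 exons) encodes the main flavonol synthase of Arabidopsis. Its level was 27.7, 28.9 and 29.9 FPKM in WT and 12.2, 10.9 and 11.95 FPKM in phod2. Every WT library was above every phod2 library, and FLS1 was 2.55-fold lower in phod2 (log2 fold change -1.35 ± 0.06, adjusted p = 1.8e-27).

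The anthocyanin genes went the other way. DFR (AT5G42800, chromosome 5, positions 17164093 to 17166032, minus strand, 6 exons), whose enzyme reduces dihydroflavonols, was at 7.81, 6.88 and 6.57 FPKM in WT and 11.1, 11.04 and 12.3 FPKM in phod2. All phod2 libraries were higher (log2 fold change 0.65 ± 0.09, adjusted p = 8.7e-09). LDOX (AT4G22880, chromosome 4, positions 12004726 to 12006209, minus strand, 2 exons) encodes the dioxygenase that forms anthocyanidins. It was at 3.25, 3.46 and 3.66 FPKM in WT and 5.83, 5.23 and 6.44 FPKM in phod2, again without overlap (0.72 ± 0.13, adjusted p = 4.1e-06). TT19 (AT5G17220, chromosome 5, positions 5658416 to 5659661, plus strand, 3 exons) encodes a glutathione S-transferase that helps anthocyanins reach the vacuole. It was at 3.05, 3.48 and 2.40 FPKM in WT and 6.19, 6.36 and 6.36 FPKM in phod2. Its libraries did not overlap either, and it rose 2.07-fold (log2 fold change 1.05 ± 0.15, adjusted p = 1.8e-08), a change that was below 2-fold under some alternatives, with a lowest log2 value of 0.89. DFR, LDOX and TT19 lie 0%, 0% and 8.67% within other counted genes.

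Because the branches moved in opposite directions, the balance of FLS1 to each anthocyanin gene within a library shifted by more than either gene alone. FLS1 had 3.55, 4.21 and 4.55 times the FPKM of DFR in the WT libraries and 1.097, 0.983 and 0.973 times in phod2. The transcripts of the competing enzymes, which were unequal in WT, were thus at near equal levels per length in phod2. The ratio of FLS1 to LDOX was 8.35 ± 0.179 in WT and 2.01 ± 0.131 in phod2, and that of FLS1 to TT19 was 9.95 ± 2.20 against 1.85 ± 0.134 (SD, n = 3 each). On the log2 scale the shifts were -2.01 for DFR, -2.06 for LDOX and -2.41 for TT19. No ratio in phod2 reached the lowest one in WT. The ratio of CHS to DFR went from 18.7 ± 2.03 to 4.30 ± 0.215. These ratios are a description of the libraries with no test, and an exact permutation test of 3 libraries against 3 could not have gone below p = 0.10.

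**Figure D2:**
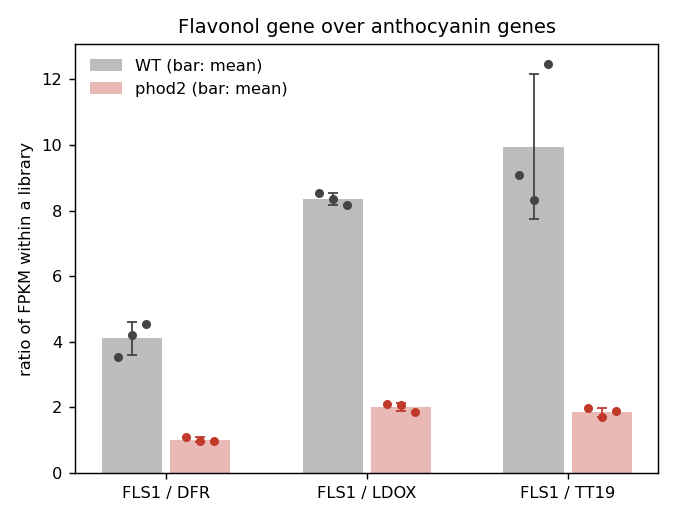
Ratio of FLS1 FPKM to DFR, LDOX and TT19 FPKM within each library (points), with the mean as a bar and the SD as an error bar (n = 3). All phod2 ratios lie between 0.973 and 2.09, below the lowest WT ratio of 3.55.

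The order of the levels changed with it. In WT it was CHS (131.7 ± 3.88 FPKM), FLS1 (28.9 ± 1.098), CHI (22.1 ± 0.672), DFR (7.09 ± 0.645), F3'H (3.77 ± 0.125), LDOX (3.46 ± 0.205), TT19 (2.98 ± 0.544), MYB111 (2.93 ± 0.481), MYB12 (2.34 ± 0.163) and MYB75 (0.183 ± 0.0929). From TT19 to MYB12 the neighbours overlapped over their libraries, as did LDOX with F3'H and with TT19. In phod2 CHI (12.1 ± 0.483 FPKM), FLS1 (11.7 ± 0.715) and DFR (11.5 ± 0.697) overlapped, and TT19 (6.30 ± 0.0981) and LDOX (5.83 ± 0.605) stood above F3'H (2.69 ± 0.435).

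Among the regulators MYB12 fell and its relative MYB111 did not pass the test. MYB12 (AT2G47460, chromosome 2, positions 19476326 to 19479597, plus strand, 3 exons), an activator of CHS, CHI, F3H and FLS1 best known from roots, was at 2.37, 2.48 and 2.16 FPKM in WT and 0.81, 1.11 and 0.75 FPKM in phod2. Its groups lay apart, with 68 to 84 counts in WT and 23 to 34 in phod2 (log2 fold change -1.43 ± 0.21, adjusted p = 5.7e-08). With limma on log2(FPKM + 1), which shrinks changes of low genes, its log2 fold change was -0.82, short of 2-fold. MYB111 (AT5G49330, chromosome 5, positions 19998823 to 20001572, minus strand, 3 exons), which activates the same genes and is best known from cotyledons, was at 2.38, 3.25 and 3.17 FPKM in WT and 3.23, 2.69 and 2.52 FPKM in phod2. These libraries overlapped, and the log2 fold change was -0.10 with a 95% interval of -0.40 to 0.21 (adjusted p = 0.627), which does not reach the value of MYB12. The difference between the changes of MYB12 and MYB111 was not tested.

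MYB75 (AT1G56650, chromosome 1, positions 21233555 to 21235292, minus strand, 3 exons), the main anthocyanin MYB factor of seedlings, was scarce in all libraries. It had 2, 5 and 5 counts in WT and 7, 8 and 12 in phod2, or 0.08, 0.26 and 0.21 against 0.35, 0.37 and 0.52 FPKM. The phod2 libraries were the higher ones. The summed counts were 12 in WT (95% Poisson interval 6.20 to 21.0) and 27 in phod2 (17.8 to 39.3). These intervals cover counting error only, and their overlap is not a test of a difference. Tested without the filter on low counts MYB75 had a log2 fold change of 1.17, with a 95% interval of -0.05 to 2.39 (edgeR adjusted p = 0.135, DESeq2 adjusted p = 0.25). A difference was thus not called at this depth.

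The wider pathway was read from a list of 63 genes, the 10 members among them, of which 49 were tested. Of these 22 fell, 11 rose and 16 did not pass, and the median log2 fold change was -0.10 against 0.01 for all tested genes. The 11 of 49 that rose are a share near the 20.9% of all tested genes, and the 22 of 49 that fell are above their 24.6%. This list was also chosen with earlier results of these data known, so its shares are a description and not a test. At the entry from phenylalanine 5 of 8 genes fell and none rose. The phenylalanine ammonia-lyase genes PAL1, PAL2 and PAL4 had log2 fold changes of -0.90, -0.45 and -1.26 and the cinnamate hydroxylase gene C4H of -0.62. Between CHS and the branch point all 4 tested genes fell, CHIL, whose product assists chalcone synthase, by 1.37 ± 0.07 (SE, adjusted p = 1.7e-24). F3H, which encodes flavanone 3-hydroxylase, was listed at 0.03 to 0.46 FPKM and did not enter the main test. It had 11, 10 and 15 counts in WT and 2, 1 and 3 in phod2. Without the filter on low counts F3H had a log2 fold change of -2.48, with a 95% interval of -3.81 to -1.16 (edgeR adjusted p = 0.0011). It lies 94.5% within a gene counted on the opposite strand. Whether counting used strand was not given, so its values may say little about its transcript.

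**Figure D3:**
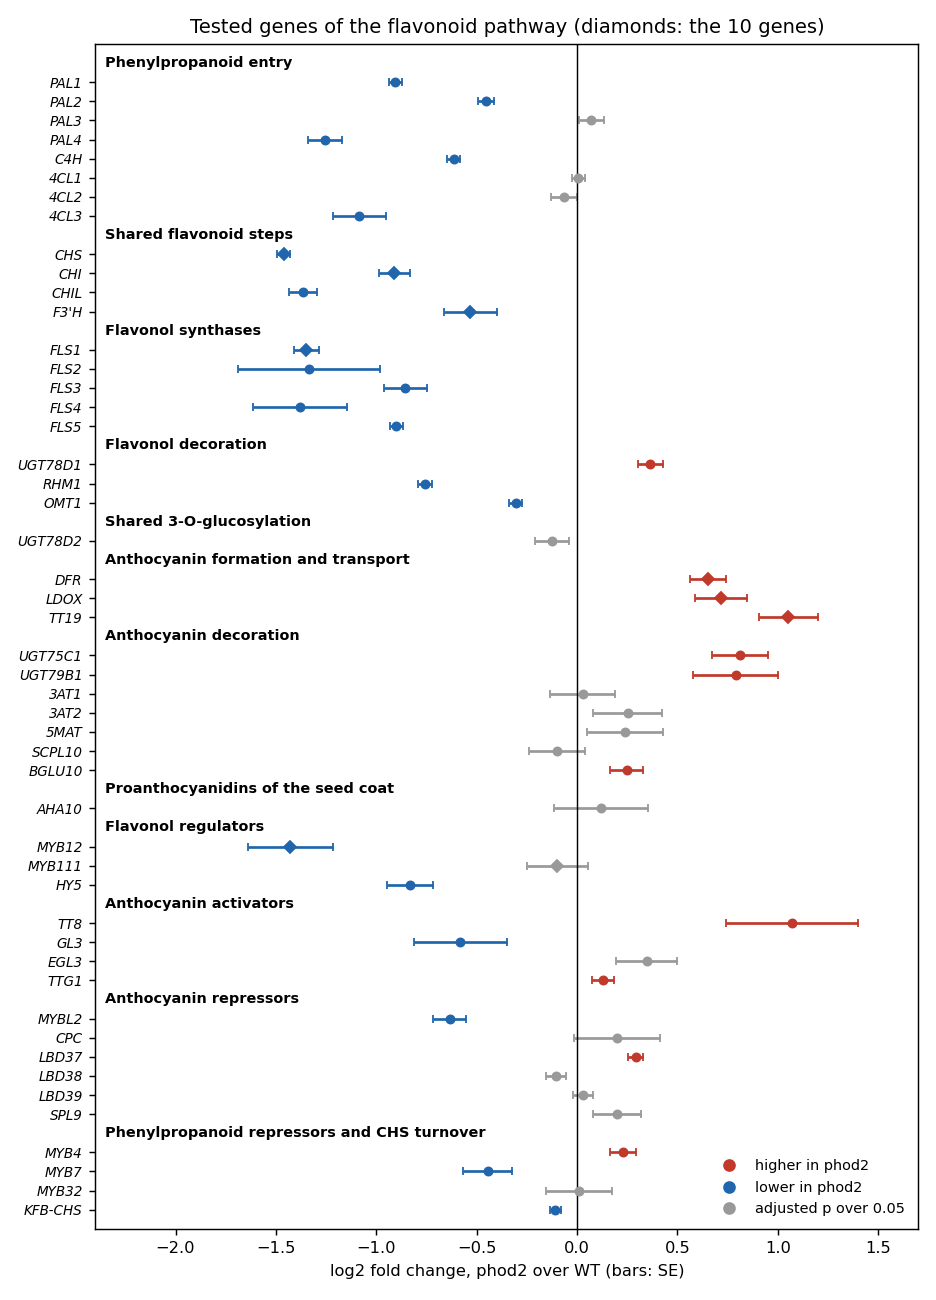
Log2 fold change (phod2 over WT) with its SE for the 49 tested genes of the wider list, grouped by step, with diamonds for the members and colours for genes that rose, fell or did not pass. Entry, shared and flavonol synthase genes lie at or left of 0 apart from PAL3 and 4CL1, and the anthocyanin genes mostly to the right.

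All 5 tested flavonol synthase genes fell. Beside FLS1 these were FLS5 (91.8 ± 2.91 to 50.7 ± 0.940 FPKM, log2 fold change -0.90 ± 0.03), FLS3 (-0.86 ± 0.11), FLS4 (-1.38 ± 0.23) and FLS2 (-1.33 ± 0.35, at under 1.5 FPKM), gene copies known for little or no flavonol synthase activity. FLS2 was named after its value was seen. Of 6 genes that decorate flavonols 3 were tested, and these moved both ways. UGT78D3, UGT89C1 and UGT73C6 were not tested. UGT89C1 and UGT73C6 lie 99.6% and 100% within genes counted on the opposite strand, so their values may say little about their transcripts. RHM1, which makes UDP-rhamnose, fell by 0.76 ± 0.04 and the O-methyltransferase gene OMT1 by 0.31 ± 0.03 on the log2 scale, while the flavonol rhamnosyltransferase gene UGT78D1 rose from 16.1 ± 1.41 to 21.2 ± 2.07 FPKM (0.37 ± 0.06, adjusted p = 1.6e-06). UGT78D2, whose enzyme glucosylates both flavonols and anthocyanidins, was at 9.44 ± 0.191 and 8.90 ± 0.739 FPKM and overlapped between genotypes (-0.13, 95% interval -0.30 to 0.05, adjusted p = 0.235).

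Of 7 genes that decorate anthocyanins, 3 passed the test, all upward, and 4 did not pass. Of all tested genes 45.5% passed and 20.9% rose, so passing was about as common among these genes as among all. The anthocyanin 5-O-glucosyltransferase gene UGT75C1 was at 2.33, 2.66 and 2.10 FPKM in WT and 4.28, 4.20 and 4.26 FPKM in phod2 (log2 fold change 0.81 ± 0.14, adjusted p = 1.8e-06). It lay apart between genotypes, with 27.1% of its length within other genes. UGT79B1, which adds xylose, was at 1.11, 1.22 and 0.81 FPKM against 1.99, 1.72 and 1.85 FPKM (0.79 ± 0.21, adjusted p = 0.0014). The glucosyltransferase gene BGLU10 rose by 0.25 ± 0.08 (adjusted p = 0.0107), did not pass with DESeq2 (adjusted p = 0.0545) or without phod2 replicate 1 (adjusted p = 0.0977), and shares 92.3% identity with a neighbouring gene. The acyltransferase gene 3AT2 had 0.25 ± 0.17 (adjusted p = 0.244) and a near copy, 3AT1, at 96.7% identity, so its value is uncertain. Of 5 genes of seed coat proanthocyanidins only the proton pump gene AHA10 had enough counts (0.12 ± 0.23, adjusted p = 0.715). The summed level of these 5 was 0.66 to 1.22 FPKM over all 6 libraries, with TT12 at 0 in every library.

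Genes for the partners of the anthocyanin MYB factors had changes in both directions. TT8, whose bHLH protein is known to act on DFR, was at 0.44, 0.20 and 0.28 FPKM in WT and 0.89, 0.57 and 0.62 FPKM in phod2. Its libraries did not overlap (log2 fold change 1.07 ± 0.33, adjusted p = 0.0060), but it missed the threshold without phod2 replicate 1 (0.86, adjusted p = 0.0633) and was at 0.37 with limma on log2(FPKM + 1). GL3, a bHLH gene also active in hair cell patterning, was at 0.70 to 0.98 FPKM in WT and 0.43 to 0.73 FPKM in phod2 and overlapped. It had -0.58 ± 0.23 (adjusted p = 0.0344), a call lost in DESeq2 (adjusted p = 0.141), in both limma fits (0.102 and 0.113) and without WT replicate 1 or 2 or phod2 replicate 1 or 3 (0.0553 to 0.195). EGL3 was at 1.31 to 1.50 and 1.80 to 1.92 FPKM, apart between genotypes, with 0.35 ± 0.15 (adjusted p = 0.0578), which passed on library totals (adjusted p = 0.0305), with upper-quartile factors (0.0449) and with limma on log2(FPKM + 1) (0.0491). The shared WD40 gene TTG1 was at 20.1 ± 0.494 and 22.6 ± 1.04 FPKM (0.13 ± 0.05, adjusted p = 0.0423), a call lost in DESeq2 (0.128) and without any of 5 single libraries, all but phod2 replicate 1 (0.0564 to 0.206). MYB90, MYB113 and MYB114, relatives of MYB75, and the flavonol regulator MYB11 were listed at 0 to 0.13 FPKM and were not tested.

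**Figure D4:**
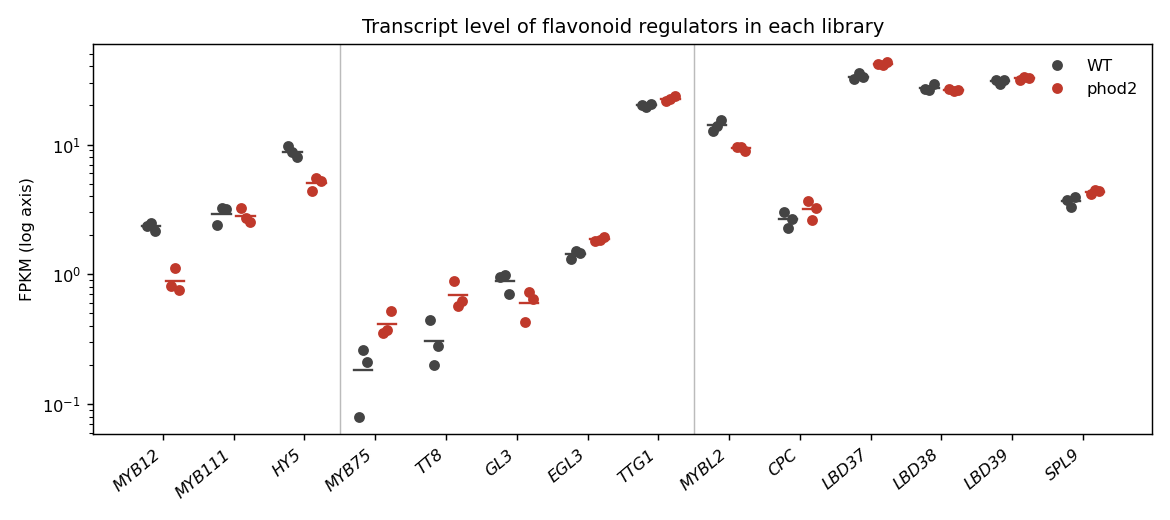
FPKM of flavonoid regulators on a log axis, with 1 point for each library and a line at the mean of each genotype (n = 3), with grey lines between flavonol regulators, anthocyanin activators and anthocyanin repressors. MYB12, HY5 and MYBL2 are lower in phod2, and MYB75 and TT8 are higher but under 1 FPKM. EGL3, TTG1, LBD37 and SPL9 also lie higher in phod2, though EGL3 and SPL9 did not pass the test. MYB111, GL3, CPC, LBD38 and LBD39 overlap.

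HY5, a bZIP factor of light signalling that acts on MYB12, CHS and anthocyanin genes, was at 9.66, 8.69 and 7.98 FPKM in WT and 4.38, 5.55 and 5.24 FPKM in phod2. It fell without overlap (log2 fold change -0.83 ± 0.11, adjusted p = 9.2e-09). Among 6 repressors of anthocyanin genes MYBL2 fell and LBD37 rose. MYBL2, a small MYB protein that displaces activating MYB factors, was at 12.8, 14.0 and 15.5 FPKM in WT and 9.52, 9.58 and 8.93 FPKM in phod2, all lower (-0.64 ± 0.08, adjusted p = 3.4e-09). LBD37, a repressor induced by nitrate, was at 33.4 ± 1.87 and 42.0 ± 1.36 FPKM (0.29 ± 0.04, adjusted p = 2.6e-09). Its relatives LBD38 (-0.10 ± 0.05, adjusted p = 0.0842, and 0.0482 without WT replicate 2) and LBD39 (0.03 ± 0.05, adjusted p = 0.668) did not pass, nor did CPC (0.20 ± 0.21) and SPL9 (0.20 ± 0.12). Of the repressors of general phenylpropanoid genes MYB4 rose by 0.23 ± 0.07 and MYB7 fell by 0.45 ± 0.12, and MYB32 had 0.01 ± 0.17 (adjusted p = 0.971). KFB-CHS, an F-box protein that marks chalcone synthase for breakdown, had one of the highest levels in the list, 184.1 ± 3.64 and 175.6 ± 4.60 FPKM, and fell by 0.11 ± 0.03 (adjusted p = 4.4e-04), a call lost with limma (0.0639 and 0.065).

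The genes whose profile over the 6 libraries was most like that of CHS were AGP2, GSTU8 and AT2G44500, with root mean square differences of 0.04, 0.05 and 0.05 in centred log2 level and log2 fold changes of -1.50, -1.41 and -1.53. For FLS1 they were KTI1, AT4G35320 and AT5G12420 (0.04, 0.06 and 0.06), and for DFR they were DRB3, AT4G36470 and AT1G33590 (0.04, 0.05 and 0.05), out of 13316 genes at 5 FPKM or more. With libraries of only 2 genotypes genes with a fold change of like size score as alike. Within a difference of 0.15 there were 114 genes for CHS, 120 for FLS1 and 332 for DFR.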

How the data were processed

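The deposited table gives, per the file headers, whole-number counts and FPKM per gene and library. The deposited FPKM equal the count over exonic gene size and library total to within 0.005, so the authors applied no further scaling. The aligner, the counting tool and whether strand was used were not given in the sources used here. A mouse build, mm10, is named in the submitters' processing notes. Of 32548 identifiers found in TAIR10.1, 32532 had the same start and end there, so sequences were read from TAIR10.1. Groups and replicates come from the sample labels. The members and all gene lists were chosen with earlier results of these data known.

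Counts of the 6 libraries were tested with edgeR 4.0.16 (filterByExpr, TMM, glmQLFit and glmQLFTest, 2-sided, genotype only) in R 4.3.3. SE is the absolute log2 fold change over the square root of F. The edgeR step was tested on simulated data. It recovered 67.6% of 1.5-fold, 90.4% of 2-fold and 100% of 4-fold changes, with 3.51% of its calls false. A gene that did not pass may still have a small change. Alternatives used DESeq2 1.42.0, limma 3.58.1, other scalings and filters, a replicate block and single libraries left out. Copies were sought with BLAST 2.17.0 (at least 85% identity over 30% of a transcript) and figures drawn with matplotlib 3.10.9. Named genes are the members, all listed regulators of either branch, up to 4 genes of the lowest adjusted p in every other step, LIP1P, and the 3 genes most like CHS, FLS1 and DFR. MYB75 was left out of the last because its counts were too low. Replicates are described as biological. The p-values rest on the spread between the 3 libraries of a genotype, which edgeR partly shares across genes. That spread was small, with a common biological coefficient of variation of 2.83%. Between libraries of the same genotype the chi-square per degree of freedom was 1.57 to 2.05, where counting error alone gives about 1. Small p-values and the share of genes that passed depend on this small spread.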

Additional observations from a re-analysis of the deposited data

How the results depend on the processing

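All 5 members that fell and 3 that rose kept direction and call in every alternative that tested them. With a minimum of 5 FPKM in 3 libraries, 3 members fell, because MYB12 and F3'H were then not tested. Over the alternatives 8 to 12 genes of the wider list rose and 16 to 23 fell. The log2 shift of FLS1 against LDOX was -1.85 and against TT19 -2.12 on log2(FPKM + 1). The shift against DFR was -1.87 on that scale and -2.11 to -1.93 with single libraries left out. Genes with no call changed sign in a few cases, LBD39 without WT replicate 2 (-0.00084, against 0.051 without WT replicate 1), MYB32 without WT replicate 3 (-0.15) and without phod2 replicate 3 (-0.05, against 0.10 without WT replicate 1), and AHA10 without phod2 replicate 3 (-0.28, against 0.30 without phod2 replicate 1); the cause was not tested. With the replicate block CHS had a log2 fold change of -1.46 and FLS1 of -1.35, and of the named genes only TTG1 lost its call (adjusted p = 0.0522). Same-numbered libraries did not deviate together (correlations of -0.08, 0.00 and -0.08 across genes), so the numbers were not taken as pairs. Depth limits MYB75, TT8, GL3 and the relatives of MYB75, all under 1 FPKM. It also bears on MYB12, which had 23 to 34 counts in phod2, at 0.75 to 1.11 FPKM.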
